A study of Mus musculus with 6 samples.

Results

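Wnt signalling was examined in the tailbud of mouse embryos through 10 genes, of 35591 genes in the deposited table. They comprise 6 secreted Wnt ligands (Wnt3, Wnt3a, Wnt5a, Wnt5b, Wnt8a and Wnt11) and 4 genes that respond to the pathway (Axin2, Lef1, Sp5 and Nkd1). The genes were listed by name for their known roles in this tissue, with earlier results of these data known. All 10 passed the filter on low reads. RNA was sequenced from the tailbud, with its presomitic mesoderm, of single embryos at 8 somites (E8.5), cut just behind the forming somite. The WT group held 3 Smchd1+/+ embryos and the MommeD43 group 3 homozygous Smchd1 MommeD43/MommeD43 embryos, all of strain FVB/NJ. MommeD43 is a missense allele of the chromatin regulator SMCHD1 from a chemical mutagenesis screen, carried by every cell of the embryo. Both groups had a male (replicate 1) and a pair of females (replicates 2 and 3). The males came from 1 mother and the 4 females from 4 other mothers, so that sex, litter and the individual male embryo cannot be told apart.

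Wnt proteins are secreted signals that bind Frizzled receptors with Lrp5 or Lrp6 co-receptors, which stabilises beta-catenin and lets it act with Tcf and Lef factors on target genes. In the tailbud this branch is known to keep the progenitors of the trunk and tail mesoderm, and its targets include feedback inhibitors of the pathway itself. Other ligands, such as Wnt5a and Wnt11, are best known for a branch that steers cell movement and polarity as the axis lengthens.

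The libraries held 10957916 to 47298348 reads. Levels are given in RPKM, the reads of a gene scaled to exon length and to the size of the library, so that genes of different length can be compared. Smchd1 itself reached 8.07 ± 0.672 RPKM in the WT group and 7.58 ± 0.3997 RPKM in the mutant group (SD, n = 3 each), which does not check the genotype of a missense allele. In the labels the tissue is tailbud but the source field reads NSCs. The 8 markers of tailbud and presomitic mesoderm, led by Cdx4 and Cdx2, summed to 649.6 to 880.1 RPKM in the 6 libraries. The 6 neural markers summed to 10.9 to 12.6 RPKM, nearly all from Nes, and the libraries were therefore taken as tailbud. Primitive blood markers ranged from 5.49 to 469.8 RPKM, and yolk sac endoderm markers from 37.2 to 430.6 RPKM. In such whole tissue, fewer cells of a type and less RNA per cell cannot be told apart.

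Promoter sequence is shown for Sp5 and Axin2, whose patterns over the libraries were close, and for Wnt11, the member with the smallest p in the genotype comparison. The stretches are the 250 bases before the transcription start (RefSeq, build GRCm38.p6), 5′ to 3′ on the strand of the gene. Capitals mark the letters CTTTGAT, a core to which Tcf and Lef factors are known to bind, or the same core on the opposite strand (ATCAAAG). The Sp5 stretch lies at chr2:70474673-70474922 on the plus strand, that of Wnt11 at chr7:98834862-98835111 on the plus strand, and that of Axin2 at chr11:108920099-108920348 on the plus strand.
Sp5: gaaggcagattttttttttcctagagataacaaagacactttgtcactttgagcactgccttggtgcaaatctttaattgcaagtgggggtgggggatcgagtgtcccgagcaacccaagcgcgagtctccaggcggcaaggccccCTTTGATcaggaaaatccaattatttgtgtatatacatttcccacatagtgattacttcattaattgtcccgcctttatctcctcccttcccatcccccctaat
Wnt11: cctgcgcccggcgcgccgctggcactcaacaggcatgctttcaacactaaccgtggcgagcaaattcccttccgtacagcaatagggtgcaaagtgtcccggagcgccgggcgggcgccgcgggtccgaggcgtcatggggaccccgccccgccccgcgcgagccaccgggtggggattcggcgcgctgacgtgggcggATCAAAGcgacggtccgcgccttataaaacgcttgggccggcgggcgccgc
Axin2: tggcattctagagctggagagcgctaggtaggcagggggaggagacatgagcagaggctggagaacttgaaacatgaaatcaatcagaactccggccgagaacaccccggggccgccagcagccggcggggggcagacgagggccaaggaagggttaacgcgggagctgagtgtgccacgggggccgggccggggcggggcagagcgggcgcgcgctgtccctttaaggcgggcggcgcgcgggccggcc
In Sp5 the core lay 104 to 98 bases before the start. The Wnt11 core lay on the opposite strand, 51 to 45 bases before the start shown. Wnt11 had 2 starts listed, of which only the first is shown. The Axin2 stretch held neither CTTTGAT nor the other core searched, CTTTGAA, whose letters on the opposite strand are TTCAAAG, which says only that these letters are not in this window. The 2 cores differ in their last letter, so that a position can match only 1 of them. Across 32851 windows of this length, read on both strands, 3.21% held CTTTGAT and 4.46% held CTTTGAA. The table of starts held 8 of the 10 members, with 14 windows between them. CTTTGAT was found in 3 of these windows, those of Sp5, of the Wnt11 start shown and of a start of Wnt5b. CTTTGAA was found in 0. These are matches of letters, and binding was not measured. Wnt5a and Wnt8a had no entry.

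The levels of the members covered a wide range. Wnt5b had the highest mean over the 6 libraries (48.9 RPKM), followed by Axin2 (39.8 RPKM) and Wnt3a (33.4 RPKM). Lef1, Sp5, Wnt5a and Nkd1 lay close together, with means of 23.9, 23.4, 23.3 and 22.3 RPKM. Wnt8a (7.56 RPKM), Wnt11 (2.21 RPKM) and Wnt3 (1.15 RPKM) were lower. Neighbours in this order had separate ranges over the libraries only from Nkd1 to Wnt8a, from Wnt8a to Wnt11 and from Wnt11 to Wnt3. Among the others the ranges overlapped, although Axin2 was above Wnt3a, and Wnt3a above Lef1, in 6 of 6 libraries.

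**Figure D1:**
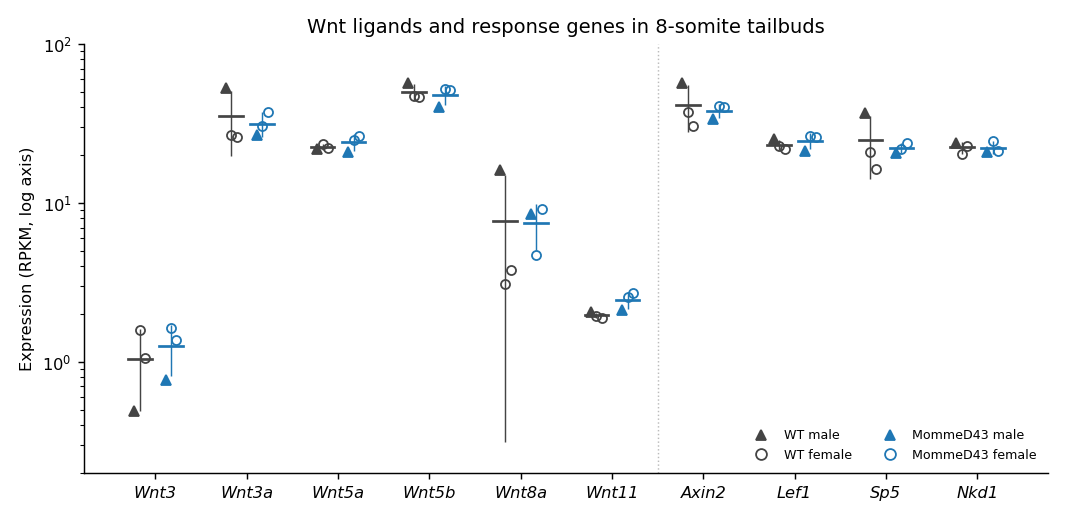
Level of each member in RPKM (log axis) in each library. Filled triangles are males, open circles females, grey WT and blue MommeD43, horizontal lines the mean and vertical lines the SD (n = 3 each). The WT male lies above both WT females for 8 members and below both for 2, Wnt3 and Wnt5a.

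The 6 ligands made up most of the Wnt message of the tailbud. They held 78.7% to 85.5% of the summed RPKM of the 19 Wnt genes in the table, with Wnt5b alone at 32.3% to 37.9% and Wnt3a at 20.4% to 30.2%. Wnt6, an ectodermal ligand, was the highest of the remaining Wnt genes, with 16.2 ± 2.25 RPKM in WT against 17.7 ± 2.41 RPKM in MommeD43 (SD, n = 3 each).

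Wnt3a, the ligand needed for tail mesoderm (chromosome 11, 59248033 to 59290752), was at 53.1, 26.6 and 26.0 RPKM in WT replicates 1, 2 and 3 and at 26.6, 30.4 and 37.6 RPKM in MommeD43 replicates 1, 2 and 3. The WT male stood far above the other WT embryos, and the groups overlapped. The log2 fold change of MommeD43 against WT was -0.09 ± 0.26 (SE; limma, adjusted p = 0.999), and it was 0.25 without WT replicate 1.

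Wnt8a, a ligand of the primitive streak and early tail progenitors (chromosome 18, 34542313 to 34548273), varied most. It was at 16.2, 3.10 and 3.76 RPKM in WT and at 8.47, 4.73 and 9.10 RPKM in MommeD43, in the order of replicates. Its highest value was 5.21 times its lowest, both of them in WT embryos, so that the MommeD43 range fell inside the WT range. Its log2 fold change was 0.32 ± 0.57 (SE; limma, adjusted p = 0.999), 1.07 without WT replicate 1 and -0.13 without WT replicate 2.

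Wnt3, which starts the primitive streak earlier in development (chromosome 11, 103774150 to 103817957), was at 0.488, 1.60 and 1.06 RPKM in WT and at 0.771, 1.64 and 1.37 RPKM in MommeD43. These levels rest on 26 to 239 reads, and the exact (Clopper-Pearson) 95% interval in MommeD43 replicate 1, the shallowest library, ran from 0.504 to 1.13 RPKM. The male had the lowest level in both groups, opposite to Wnt3a and Wnt8a in WT. With a log2 fold change of 0.36 ± 0.45 (SE; limma, adjusted p = 0.999), and of -0.11 without WT replicate 1, no genotype difference was detectable. The ratio of Wnt3a to Wnt3 RPKM ran from 16.6 in WT replicate 2 to 108.8 in WT replicate 1, and was between 18.5 and 34.5 in the other libraries.

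Wnt5a, the polarity ligand of the elongating axis (chromosome 14, 28504750 to 28527448), was the steadiest of the ligands. It was at 21.8, 23.4 and 22.1 RPKM in WT and at 21.01, 25.0 and 26.5 RPKM in MommeD43. The MommeD43 male was the lowest of all, and the MommeD43 females the highest. The log2 fold change was 0.10 ± 0.09 (SE; limma, adjusted p = 0.999), with a 95% interval of -0.10 to 0.30.

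Wnt5b, its close relative (chromosome 6, 119432531 to 119544347), was at 56.7, 47.3 and 46.3 RPKM in WT and at 40.1, 52.0 and 51.3 RPKM in MommeD43. The males held the extremes, highest in WT and lowest in MommeD43. Its log2 fold change was -0.07 ± 0.12 (SE; limma, adjusted p = 0.999), and 0.02 without WT replicate 1.

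Wnt11, a ligand of cell movement (chromosome 7, 98835112 to 98855195), was at 2.05, 1.94 and 1.89 RPKM in WT and at 2.12, 2.55 and 2.71 RPKM in MommeD43, from 96 to 499 reads per library. All MommeD43 values lay above all WT values, although by little for the male, whose 95% counting interval of 1.72 to 2.59 RPKM covers the WT values. MommeD43 was higher by a log2 value of 0.32 ± 0.14 (SE; limma, unadjusted p = 0.0485, adjusted p = 0.999). Among the 10 members it was the only one with an unadjusted p under 0.05, and the only one whose groups did not overlap. The background over all 13616 autosomal genes tested was 2.4% at that unadjusted p (1.42% higher and 0.977% lower in MommeD43). For groups that did not overlap it was 7.08% (3.53% higher and 3.55% lower). A count of 1 in 10 is too small to read against either background. The unadjusted p of Wnt11 lay at the threshold, and not every setting of the fit kept it under 0.05.

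Axin2, a scaffold of the complex that degrades beta-catenin and a feedback inhibitor (chromosome 11, 108920349 to 108950783), was at 56.7, 37.1 and 30.7 RPKM in WT and at 33.5, 40.6 and 40.0 RPKM in MommeD43. The WT group held both the highest and the lowest value. The log2 fold change was -0.08 ± 0.20 (SE; limma, adjusted p = 0.999), and 0.17 without WT replicate 1.

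Sp5, a zinc-finger transcription factor (chromosome 2, 70474923 to 70477729), was at 36.7, 21.01 and 16.4 RPKM in WT and at 20.7, 21.8 and 23.9 RPKM in MommeD43. Here too the MommeD43 values fell inside the WT range. Its log2 fold change was -0.08 ± 0.25 (SE; limma, adjusted p = 0.999), and 0.25 without WT replicate 1.

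Lef1, a factor that works with beta-catenin on DNA (chromosome 3, 131110471 to 131224356), was at 25.1, 22.8 and 21.8 RPKM in WT and at 21.3, 26.4 and 25.9 RPKM in MommeD43. Nkd1, which binds Dishevelled and restrains the pathway (chromosome 8, 88521354 to 88594884), was at 23.9, 20.2 and 22.9 RPKM in WT and at 20.9, 24.7 and 21.3 RPKM in MommeD43. Both genes were steady, with a highest value 1.24 and 1.22 times the lowest, and their groups overlapped. The log2 fold change was 0.07 ± 0.09 for Lef1 and -0.00 ± 0.09 for Nkd1 (SE; limma, adjusted p = 0.999 each).

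Across the genotypes, 0 of the 10 members passed an adjusted p of 0.05, as did 0% of the autosomal genes tested (limma). Of the members 5 had a log2 fold change above 0 and 5 below, with a median of 0.04 beside 0.00 over all genes tested. The width of the 95% intervals differed between members, with -0.10 to 0.30 on the log2 scale for Wnt5a, the narrowest, and -0.99 to 1.63 for Wnt8a, the widest. The spread of log2 RPKM over the 6 libraries (SD) was above the median of all genes tested (0.14) for 7 members.

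**Figure D2:**
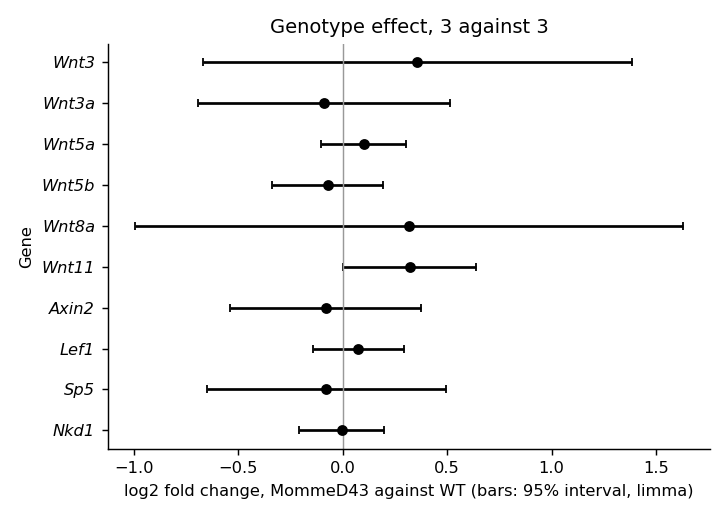
Log2 fold change of MommeD43 against WT for each member (points, 3 libraries a group) with its 95% interval from limma (bars). The interval of Wnt11 starts just above 0, and those of the other members cross 0.

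WT replicate 1 stood out among the members. It was the highest of the 6 libraries for 5 of 10 members, Wnt3a, Wnt5b, Wnt8a, Axin2 and Sp5, whereas it was the highest for 18.5% of all genes tested. Against the mean of the other WT embryos it was 4.72 times as high for Wnt8a, 2.02 times for Wnt3a, 1.96 times for Sp5 and 1.68 times for Axin2, and for Wnt3 the ratio was 0.368. WT replicate 3 was the lowest library for 4 members and MommeD43 replicate 1 for 3, whereas they were the lowest for 18.3% and 18.1% of all genes tested.

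**Figure D3:**
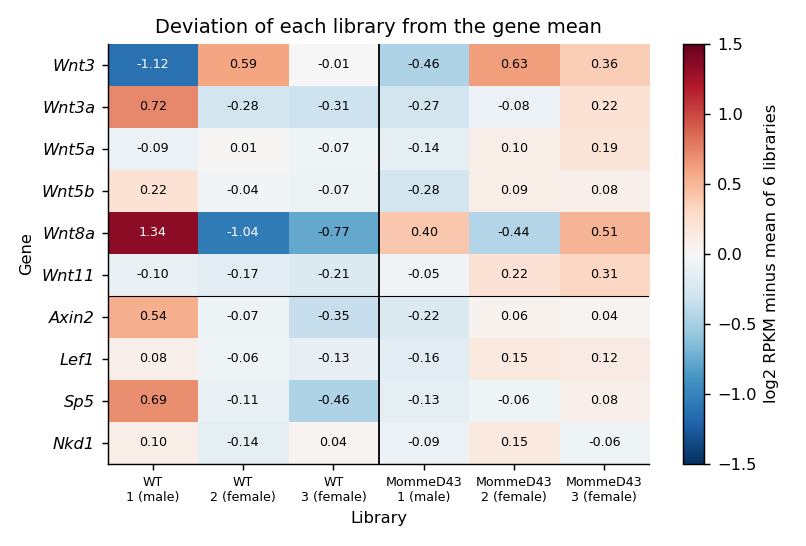
Log2 RPKM of each member in each library minus its mean over the 6 libraries (red above, blue below), with ligands above the thin line and response genes under it. The WT male is red for Wnt3a, Wnt8a, Axin2 and Sp5 and blue for Wnt3, and the MommeD43 females are mostly red.

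The pattern of Wnt3a over the libraries was set against all autosomal genes by the root mean square difference of log2 RPKM, each gene centred on its own mean. Of 13606 other genes the closest were Sema6a (a guidance receptor ligand, 0.10), Grsf1 (an RNA-binding protein, 0.10) and Etv4 (an ETS transcription factor, 0.11), over 6 libraries. Among the members, Sp5 (0.13) and Axin2 (0.15) were nearest to Wnt3a and Wnt3 (0.89) farthest. For Axin2 the closest genes were Npdc1 (0.05), Gal3st4 (0.06) and Gng3 (0.08), and the closest member was Sp5 (0.10). These are descriptions over libraries of unequal depth, and WT replicate 1 was the highest library for each of the genes named as close.

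The effect of MommeD43 in the male pair was then set against that in the females, in a fit of the 4 groups given by sex and genotype. In the females alone (2 against 2) all 10 members had a log2 fold change above 0, from 0.09 for Nkd1 to 0.94 for Wnt8a, where 51.9% of the genes tested did. For 8 of them, all but Wnt3 and Nkd1, both MommeD43 females were above both WT females, as for 21.8% of genes tested. In a separate fit of the 4 female libraries (limma), the same 8 had an unadjusted p under 0.05 and a higher level, against a background of 4.61%. As the members were chosen with earlier results of these data known, such shares are descriptions. None passed adjustment over all genes (limma, adjusted p from 0.524 to 0.805), whereas 10 autosomal genes (0.0734%) outside the members did. In the male pair (1 against 1, no replicate) the log2 difference was -0.997 for Wnt3a, -0.93 for Wnt8a, -0.83 for Sp5 and -0.76 for Axin2. It was above 0 only for Wnt3 (0.66) and Wnt11 (0.05).

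The difference between these effects, male pair minus females, was below 0 for 9 of 10 members, with a median of -0.55 beside -0.02 over all genes tested. Such a difference below 0 was seen for 52.1% of all genes. Wnt3a had -1.36 ± 0.18 (SE; 95% interval -1.78 to -0.94; limma, adjusted p = 0.0493) and was the only member to pass, where 0.272% of genes tested did. Its value lies at the threshold and the fit leaves 2 residual degrees of freedom among the samples. Both come from the female pairs, so the SE, interval and p hold no spread between males. Each male is assumed to vary like the females. The adjusted p was 0.0515 without the filter, 0.0514 with median-ratio scaling, 0.246 without WT replicate 2 and 0.257 without WT replicate 3. At an unadjusted p under 0.05, the effect was lower in the male pair for 6 members, Wnt3a, Wnt5b, Wnt8a, Axin2, Lef1 and Sp5, against a background of 5.28%. For Wnt5b the difference was -0.64 (adjusted p = 0.0796), for Axin2 -1.01 (adjusted p = 0.0928) and for Sp5 -1.12 (adjusted p = 0.127, limma). For Wnt8a it was -1.88 with an adjusted p of 0.268. As each male is a single embryo, this contrast rests on the level of WT replicate 1 and MommeD43 replicate 1.

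**Figure D4:**
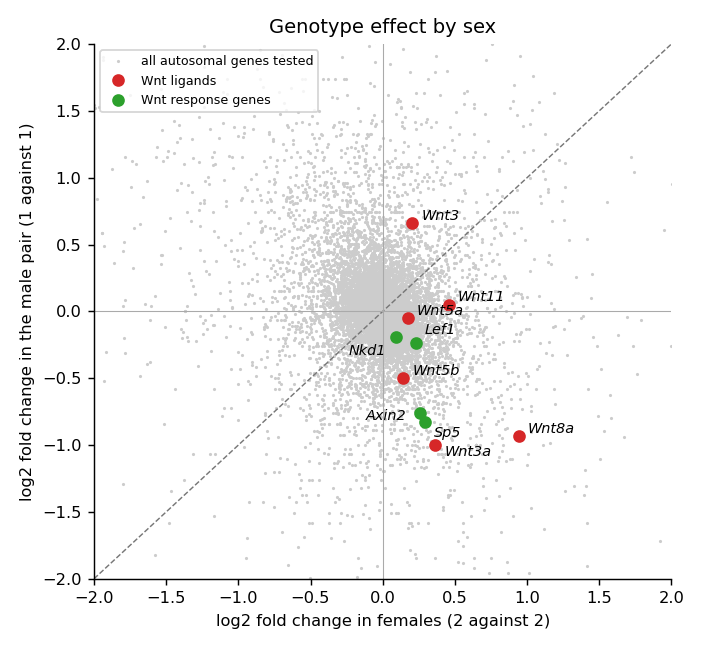
Log2 fold change of MommeD43 against WT in the male pair (vertical, 1 against 1) and in the females (horizontal, 2 against 2) for ligands (red), response genes (green) and all autosomal genes tested (grey). The axes end at 2 and leave out 194 grey points, and 9 of 10 members lie under the dashed line of equal effects, with Wnt3 above it.

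Markers of some tissues moved with this contrast too. The 8 tailbud markers summed to 880.1, 701.3 and 739.9 RPKM in WT and to 649.6, 803.2 and 843.5 RPKM in MommeD43. As for Wnt3a, the WT male was the highest of its group and the MommeD43 male the lowest of its own. Of the 7 tailbud markers tested, 6 had a lower effect in the male pair at an unadjusted p under 0.05 (background 5.28%). Among them T and Msgn1 passed adjustment (background 0.272%). The 8 yolk sac endoderm markers, led by Ttr and Apoa1, ran the other way, with sums of 136.3, 246.3 and 276.95 RPKM in WT and 430.6, 50.6 and 37.2 RPKM in MommeD43. All 8 had a higher effect in the male pair at that level (background 5.52%), and Afp, Ttr, Apob, Cubn and Rbp4 passed adjustment (background 0.272%). Primitive blood markers summed to 5.49, 469.8 and 174.0 RPKM in WT and to 13.5, 208.9 and 14.8 RPKM in MommeD43. Of the 5 tested, 2 had a higher effect in the male pair at an unadjusted p under 0.05 (background 5.52%). Endothelial markers, led by Kdr and Cdh5, summed to 21.9, 39.1 and 32.7 RPKM in WT and to 40.3, 31.3 and 30.6 RPKM in MommeD43. At that level, 5 of 6 had a higher effect in the male pair. Notochord and node markers were led by Noto and Shh. They summed to 10.3, 15.3 and 17.3 RPKM in WT and to 14.9, 12.9 and 8.78 RPKM in MommeD43. Of these markers 3 of 5 had a higher effect in the male pair at that level. On the log2 scale the median difference was 3.40 for the primitive blood, 1.12 for the endothelial and 1.01 for the notochord and node list. Of these 3 lists' genes, 0 passed adjustment. In the remaining lists few markers moved at an unadjusted p under 0.05 (background 10.8% in either direction). The counts were 0 of 3 neural, 0 of 2 somite, 1 of 5 hindgut endoderm (higher) and 1 of 5 lateral mesoderm markers (lower). Of these, 0 passed adjustment. In MommeD43 replicate 3 the notochord gene Noto was at 0.0954 RPKM, against 3.44 to 6.23 RPKM in the other libraries. The part of these tissues in the Wnt results was not tested.

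The remaining genes of the pathway were taken from lists of known components. Of 106 such genes, 93 autosomal ones passed the filter, and 0 passed an adjusted p of 0.05 between the genotypes (limma). At an unadjusted p under 0.05 there were 3, or 3.23%, near the background of 2.4%, and all 3 were lower in MommeD43 (background 0.977%). The 93 genes had a median log2 fold change of -0.00.

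Fzd5, a Frizzled receptor, was at 0.66, 0.551 and 0.496 RPKM in WT and at 0.383, 0.407 and 0.32 RPKM in MommeD43, without overlap (log2 fold change -0.62 ± 0.25 SE, limma, unadjusted p = 0.037). Lrp6, a co-receptor, was at 9.89, 10.1 and 9.69 RPKM in WT and at 9.38, 8.35 and 8.45 RPKM in MommeD43, again without overlap (log2 fold change -0.18 ± 0.07 SE, limma, unadjusted p = 0.0375). Tnks2, which marks axins for degradation, had a log2 fold change of -0.16 ± 0.06 (SE; limma, unadjusted p = 0.0334) with overlapping groups. Each of the 3 had an adjusted p of 0.999. Groups did not overlap for 5 of the 93 genes, no larger a share than the background of 7.08%, and those beyond Fzd5 and Lrp6, named after their values were seen, were Wnt2, Fzd9 and Frzb, all higher in MommeD43.

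The most abundant components of the lists did not pass the test. Ctnnb1, which encodes beta-catenin, averaged 235.6 ± 6.69 RPKM in WT against 224.9 ± 8.89 RPKM in MommeD43, and Csnk1d, a kinase of the relay, at 52.7 ± 4.37 and 51.6 ± 1.04 RPKM. Among receptors, Ptk7 averaged 134.8 ± 26.2 RPKM in WT against 129.2 ± 5.01 RPKM in MommeD43, and Fzd10 at 48.3 ± 9.16 and 47.8 ± 5.93 RPKM. Rspo3, which amplifies Wnt signals, was at 36.9 ± 3.30 and 37.1 ± 4.15 RPKM, and Wls, which carries Wnt proteins to the surface, at 33.5 ± 0.187 and 34.3 ± 0.959 RPKM (SD, n = 3 each). Their groups all overlapped.

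No inhibitor or nuclear partner had an unadjusted p under 0.05. Dkk1, which blocks Lrp co-receptors, averaged 14.3 ± 5.09 RPKM in WT against 13.8 ± 3.87 RPKM in MommeD43, and the Wnt-binding protein Sfrp2 at 15.3 ± 1.31 and 16.3 ± 1.67 RPKM. Tcf7, a partner of beta-catenin, was at 46.2 ± 4.16 and 48.8 ± 3.20 RPKM, and Pygo2, a chromatin adaptor, at 26.2 ± 0.311 and 26.2 ± 1.33 RPKM. The polarity genes Prickle1 and Celsr1 had log2 fold changes of 0.10 ± 0.08 and -0.20 ± 0.15 (SE). Wnt7a, the next of the other ligands, had 0.12 ± 0.39.

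**Figure D5:**
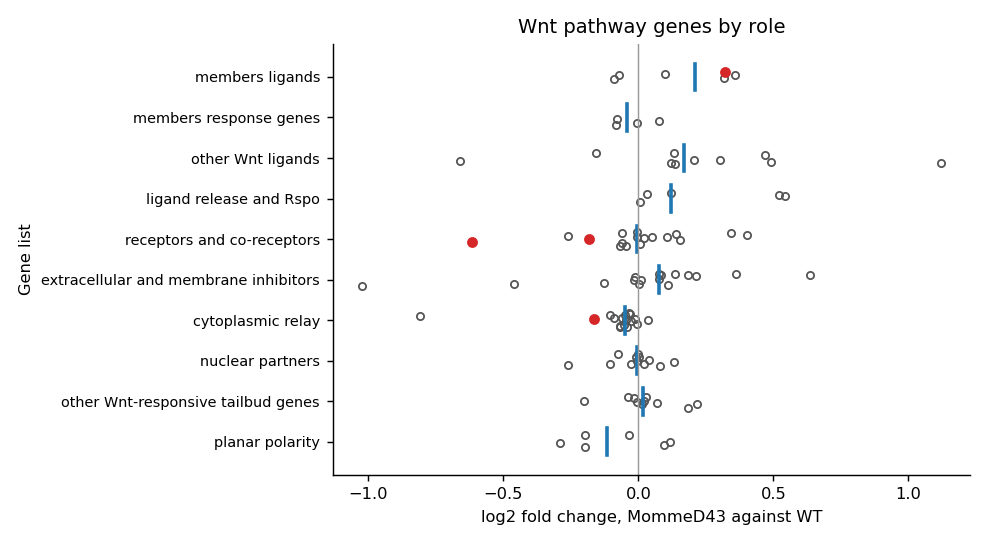
Log2 fold change of MommeD43 against WT for each tested gene of the Wnt lists (circles), with the median of each list (blue line). Filled red circles had an unadjusted p under 0.05 (Wnt11 to the right of 0, and Fzd5, Lrp6 and Tnks2 to the left), and 0 genes passed adjustment.

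Among other genes that answer to Wnt in the tailbud, Cdx2 averaged 165.8 ± 14.9 RPKM in WT against 164.1 ± 15.7 RPKM in MommeD43 (SD, n = 3 each). Cdx4, which is X-linked and was not tested, was at 232.8, 226.8 and 275.5 RPKM in WT and at 171.5, 245.7 and 274.8 RPKM in MommeD43, lowest in the MommeD43 male. Between the genotypes 0 of the 10 tested genes of this list had an unadjusted p under 0.05. In the comparison of the male pair with the females, 8 of 10 had a lower effect in the male pair at that level (background 5.28%). Of these 10 genes, 6 are also among the tailbud markers above, so that both counts rest largely on the same genes. Of the 93 pathway genes, 24 did so in either direction, 17 lower and 7 higher in the male pair, where the background in either direction was 10.8% (5.28% lower and 5.52% higher). Passing adjustment were 3 of the 93 (background 0.272%), named here after their values were seen. They were Notum, which inactivates Wnt proteins (-1.04), Msgn1 of the presomitic mesoderm (-1.06) and T, the brachyury gene.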

How the data were processed

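Polyadenylated RNA of 6 tailbuds was sequenced from stranded libraries. Per the methods and labels, the authors trimmed reads (Trim Galore 0.4.4), mapped them with HISAT2 2.0.5 to GRCm38.p6 and quantified genes in SeqMonk. The deposited values are log2 RPKM, made by the authors. Their group mean columns were not used. Groups, replicate numbers, sexes and mothers came from the labels.

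Of 35591 rows, 35555 matched GENCODE M21. Undetected genes all share the value that 0.9 read would have, from which library totals were computed and, for 98.5% of 106467 values, whole reads within 0.02. A gene was tested if 15 or more reads were found in total and 3 or more libraries reached 10 reads, scaled to the library of median depth (13616 autosomal). The filter was applied to unrounded reads after a first fit on rounded reads, with the same calls.

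Log2 values were tested with limma 3.58.1 in R 4.3.3, trend on, no pseudocount, two-sided and adjusted by Benjamini-Hochberg over all autosomal genes tested. The code was tested on simulated data, in which false calls in the comparison by sex exceeded the nominal rate. Each embryo was 1 library, and counting intervals (95%) cover counting error only. Members and lists were chosen with earlier results of these data known. Named genes were the members, for each other list the 2 highest genes and those with an unadjusted p under 0.05, the 3 genes closest to Wnt3a and to Axin2, and the 2 highest markers of a list. Alternatives were other pseudocounts, filters and scaling, voom, sex or replicate as a term, females alone and each library left out. They were listed with the design, and for the count of pathway genes were added after seeing the data. Tables and figures used pandas 2.3.3, numpy 2.4.6, scipy 1.17.1 and matplotlib 3.10.9 under Python 3.11.15.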

Additional observations from a re-analysis of the deposited data

Results flagged for a closer look

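Wnt3a was singled out because its response to MommeD43 in the male pair was unlike that in the females by the test of the difference itself. The difference of the log2 fold changes was -1.36 (SE 0.18, limma, adjusted p = 0.0493), with a log2 fold change of -0.997 for the males and 0.36 for the females. Over the alternatives the difference ran from -1.51 to -1.21, and its direction was kept in 9 of 9. Both males were in every alternative, so that the kept direction does not test their levels. The adjusted p of 0.0493 lies at the threshold, and in simulated data false calls in this comparison exceeded the nominal rate. The SE rests on the spread between females, as no male was replicated. Sex, litter and the individual males cannot be told apart.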

How the results depend on the processing

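Between the genotypes 0 members and 0 pathway genes passed under any of 16 alternatives, with 0 to 8 members at an unadjusted p under 0.05. With females alone 10 autosomal genes passed. Wnt5a, Wnt11 and Lef1 kept their direction under all 16 alternatives. The unadjusted p of Wnt11 (limma) did not stay under 0.05 in all of them. It was 0.0505 with log2(RPKM + 0.1), 0.0523 without the filter, 0.0521 with sex as a term and 0.148 without MommeD43 replicate 3. In others it was under 0.05, such as 0.0276 with voom and 0.0175 without MommeD43 replicate 1. In females alone the log2 fold change turned for Wnt3a (0.36), Wnt5b (0.14), Axin2 (0.26), Sp5 (0.30) and Nkd1 (0.0904). With voom on recovered reads it turned for Wnt8a (-0.18) and Nkd1 (0.0215), and with sample quality weights for Wnt3a (0.12), Axin2 (0.0788), Sp5 (0.11) and Nkd1 (0.0398). With each library left out in turn, it ran from -0.11 to 0.74 for Wnt3, -0.27 to 0.25 for Wnt3a, -0.14 to 0.0493 for Wnt5b, -0.13 to 1.07 for Wnt8a, -0.27 to 0.17 for Axin2, -0.33 to 0.25 for Sp5 and -0.0804 to 0.0455 for Nkd1. The cause was not tested.

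Between the male pair and the females, 64 genes and 3 members (Wnt3a, Wnt5b and Axin2) passed with the stricter filter, and 0 members without the filter or with median-ratio scaling. With each female left out, 5 to 556 genes and 0 to 5 members passed: 0 without WT replicate 2 or 3, and 5 without MommeD43 replicate 2 or 3. A lone female then stands for its group, as each male does in every such fit, and is assumed to vary like the others.

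Between samples of the same replicate number, the correlation of deviations was -0.03, 0.17 and -0.17 for numbers 1, 2 and 3. With so few embryos these values cannot decide whether the numbers pair the samples. The males of number 1 shared a mother, and the paper describes its embryos as paired by somite number. With the replicate block, 0 autosomal genes, 0 members and 0 pathway genes passed, and 307 autosomal genes, 0 members among them, had an unadjusted p under 0.05. Wnt3 had the fewest reads, 26 in the shallowest library.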
